A study of Mus musculus with 2 samples.

Results

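Lin28a, Lin28b, Igf2bp1, Igf2bp2, Igf2bp3, Hmga1, Hmga2 and Trim71 are 8 genes known for setting the pace of embryonic development, and their levels were read in the mouse midbrain at E12.5. They were taken by name, as the Lin28, Igf2bp and Hmga families plus Trim71, out of 43346 genes in the files, and all 8 were measured. They carried 30 of the 103639 annotated transcripts. The tissue was midbrain dissected from healthy embryos of the strain B6NCrl with both sexes mixed, and no allele or agent is named in the labels. It formed 1 group of 2 libraries: replicate 2 came from a pool of 88 embryos and replicate 1 from a separate pool of 120 embryos. The input was 10 ng of RNA above 200 nt in each case, so small mature RNAs were not sampled. The 2 libraries held 37381984 counts in replicate 2 and 29430493 counts in replicate 1. With 1 stage and 1 tissue, the design allows levels, ratios between genes and a comparison of the 2 pools, and gives no change over time.

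Lin28a and Lin28b encode RNA-binding proteins that bind the precursors of the let-7 microRNAs and stop them from maturing. Mature let-7 in turn binds the 3′ untranslated regions (UTRs) of many mRNAs and lowers their output, and the mRNAs of both Lin28 genes are among its known targets. The Igf2bp proteins bind and stabilise or localise mRNAs such as those of Igf2 and beta-actin. The Hmga proteins bind AT-rich DNA and alter chromatin, and Hmga2 is known for maintaining young neural stem cells. Trim71, called lin-41 in Caenorhabditis elegans, is a ubiquitin ligase and mRNA repressor of early embryos. In vertebrate neural progenitors, several of these genes are known to decline as development proceeds while let-7 accumulates.

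All 8 mRNAs held a match to the let-7 seed, the bases 2 to 8 of the microRNA by which it recognises its targets. The RefSeq table for GRCm38.p6 listed 10 mature names at 12 loci that share 1 seed, and 4 of them are shown because they represent that family, with the seed in capitals. The last line is let-7j, whose seed differs from the others and was not counted.
mmu-let-7a-5p: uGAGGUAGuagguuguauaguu
mmu-let-7b-5p: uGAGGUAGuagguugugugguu
mmu-let-7g-5p: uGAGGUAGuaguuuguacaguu
mmu-miR-98-5p: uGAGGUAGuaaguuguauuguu
mmu-let-7j: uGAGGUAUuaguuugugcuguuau

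The shared let-7a form of chromosome 13 lies at chr13:48538239-48538260 on the minus strand, let-7b at chr15:85707325-85707346 on the plus strand, let-7g at chr9:106178846-106178867 on the plus strand, miR-98 at chrX:151913229-151913250 on the plus strand and let-7j at chr3:140028281-140028304 on the plus strand.

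The motif searched was CTACCTC, the complement of the seed, and CTACCTCA, the same match followed by an A, on the sense strand of the 3′ UTR of each gene's most abundant protein-coding transcript. An 8-mer match was counted among the 7-mers as well. The match nearest to the stop codon is shown for each gene, since it is the only place where all 8 can be set side by side, with 15 bases before it in lower case and the matching bases in capitals.
Lin28a: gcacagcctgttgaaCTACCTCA
Lin28b: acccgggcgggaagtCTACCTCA
Igf2bp1: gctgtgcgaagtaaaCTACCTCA
Igf2bp2: acacacaaataaaagCTACCTCA
Igf2bp3: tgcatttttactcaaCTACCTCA
Hmga1: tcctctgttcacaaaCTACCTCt
Hmga2: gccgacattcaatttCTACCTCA
Trim71: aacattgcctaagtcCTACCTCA

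These stretches, read from transcripts of GENCODE M21 on GRCm38 (mm10), lie on the minus strand for 7 of the genes and on the plus strand for Hmga1. Their places are chr4:134005189-134005211 in Lin28a, chr10:45381022-45381044 in Lin28b, chr11:95961778-95961800 in Igf2bp1 and chr16:22059473-22059495 in Igf2bp2. For the remaining genes they are chr6:49086787-49086809 in Igf2bp3, chr17:27563277-27563299 in Hmga1, chr10:120364224-120364246 in Hmga2 and chr9:114512472-114512494 in Trim71. In Hmga2 and Lin28b the first match began 21 and 36 bases after the stop codon, while in Igf2bp1 it began 1715 bases after it.

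The number of matches divided the genes. Lin28b, Igf2bp1, Hmga2 and Trim71 each held 4 of the 7-mers, Lin28a held 2, and Igf2bp2, Igf2bp3 and Hmga1 held 1 each. All 4 in Trim71 were 8-mers, as were 3 of 4 in Igf2bp1, both in Lin28a, 1 of 4 in Lin28b and 1 of 4 in Hmga2. The single match in Hmga1 was a 7-mer, and those in Igf2bp2 and Igf2bp3 were 8-mers. In the longest 3′ UTR of each of 21020 protein-coding genes, 9.02% of genes held a 7-mer and 3.06% an 8-mer, and 12 genes held 4 or more 7-mers, among them these 4. The share of 3′ UTRs with a 7-mer was higher among longer ones, at 8.24% near the length of Hmga1 and 34.4% near that of Igf2bp1. Among 3′ UTRs within 0.8 to 1.25 times the same length, 0.121% held as many 7-mers as the 2977 bases of Hmga2, 0.295% as many as the 4445 bases of Lin28b, 0.331% as many as the 6337 bases of Igf2bp1 and 0.479% as many as the 5512 bases of Trim71. For the genes with 1 match the share was larger, at 12.1% for Igf2bp2, 13.3% for Igf2bp3 and 8.24% for Hmga1, and it was 2.06% for Lin28a with 2. The 8 genes were not taken out of these length sets, so each share counts the gene itself. Near the length of Igf2bp1, the 3′ UTRs with 4 or more 7-mers were those of Igf2bp1 and Trim71 alone. Near that of Trim71 they were those of Trim71, Igf2bp1, Lin28b and Nr6a1. Most of the 8 genes are known let-7 targets, so the shares describe them and test nothing. A match of letters is not a measured site.

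**Figure D1:**
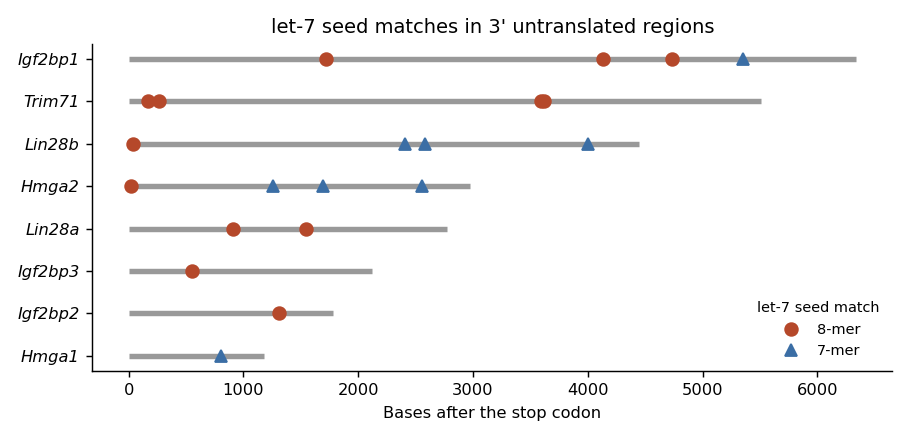
Grey bars are the 3′ UTRs of the 8 genes (x axis: bases after the stop codon, from the leading protein-coding transcript), orange circles are 8-mer and blue triangles 7-mer matches to the let-7 seed. Trim71 and Igf2bp1 carry 4 matches each in the longest 3′ UTRs, and the last 2 of Trim71 lie so close together (3591 and 3617 bases) that their circles overlap.

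The genes fell into an abundant set, a low set and 1 gene under 1 TPM. Levels below are TPM, transcript abundances that the authors scaled to transcript length and library, so that they can be compared between genes. Hmga1, a chromatin protein of dividing cells (chromosome 17, 27556497 to 27563674), was the highest at 184 TPM in replicate 2, against 181 TPM in replicate 1, or 183 ± 2.23 TPM (SD, n = 2). Only 773 of 21461 nuclear protein-coding genes had a higher mean. The 3 Igf2bp genes followed, and together summed to 224 TPM in replicate 2, against 221 TPM in replicate 1.

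Igf2bp1, which binds beta-actin mRNA in growing axons (chromosome 11, 95957163 to 96005940), was at 85.9 TPM in replicate 2, against 78.9 TPM in replicate 1, or 82.4 ± 4.91 TPM. Igf2bp3, a largely fetal paralog (chromosome 6, 49085223 to 49214957), was at 78.1 TPM in replicate 2, against 79.4 TPM in replicate 1, or 78.8 ± 0.919 TPM. The order of these 2 changed between the libraries, and their means differed by less than the spread of Igf2bp1. Igf2bp2, the paralog that persists in adult tissues (chromosome 16, 22059009 to 22163299), was lower in both libraries, at 59.6 TPM in replicate 2, against 62.2 TPM in replicate 1, or 60.9 ± 1.85 TPM.

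Hmga2 and the Lin28 pair were several times lower. Hmga2 (chromosome 10, 120361275 to 120476469) was at 10.2 TPM in replicate 2, against 11.6 TPM in replicate 1, or 10.9 ± 0.962 TPM. Lin28b (chromosome 10, 45376620 to 45486395) was at 6.52 TPM in replicate 2, against 8.99 TPM in replicate 1, or 7.76 ± 1.75 TPM. Hmga2 was above Lin28b in each library. Lin28a (chromosome 4, 134003330 to 134018841) was at 2.71 TPM in both libraries, from 207 counts in replicate 2 and 163 counts in replicate 1. Trim71 (chromosome 9, 114507133 to 114564369) was at 0.51 TPM in replicate 2, against 0.64 TPM in replicate 1, or 0.575 ± 0.0919 TPM, with 105 counts in each library. For scale, the median of the 13202 nuclear protein-coding genes with a mean of at least 1 TPM was 21.2 TPM, a level that the 4 most abundant of the 8 genes exceeded and the others did not reach. These are levels of bulk tissue, in which a few cells with much RNA and many cells with little cannot be told apart.

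**Figure D2:**
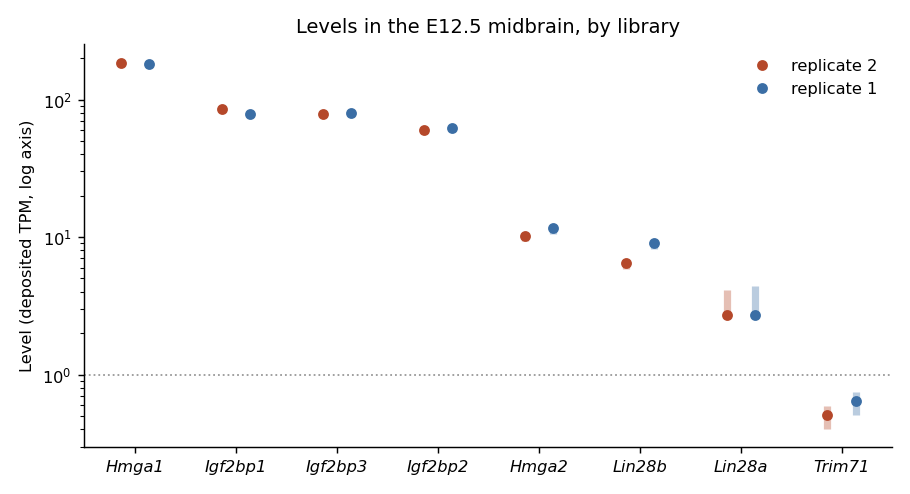
Points are deposited TPM of each gene on a log axis, replicate 2 in orange left of replicate 1 in blue, and shaded bars are the deposited intervals of the posterior estimate. The means run between 183 TPM for Hmga1 and 0.575 TPM for Trim71, and the dotted line marks 1 TPM.

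Lin28a had a second estimate that did not match the first. Its posterior mean was 3.31 TPM in replicate 2, against 3.45 TPM in replicate 1, against the deposited 2.71 TPM in each, with intervals of 2.56 to 4.11 TPM in replicate 2 and 2.57 to 4.41 TPM in replicate 1. The same estimate gave 79.4% in replicate 2 and 75.3% in replicate 1 of the gene to Lin28a-201, the transcript of 209 codons, while the deposited isoform share was 100% in replicate 2 and 99.8% in replicate 1. These intervals are wide beside the equal deposited levels.

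The families differed in how far apart their paralogs were. Hmga1 exceeded Hmga2 by 18.0 times in replicate 2 and 15.6 times in replicate 1 on the TPM scale, a ratio of 16.8 ± 1.69 (SD, n = 2). Lin28b exceeded Lin28a by 2.41 times in replicate 2 and 3.32 times in replicate 1, a ratio of 2.86 ± 0.644. By posterior means the ratio of Lin28b over Lin28a was 2.22. The Igf2bp genes were closer, with Igf2bp1 over Igf2bp2 at 1.44 in replicate 2 and 1.27 in replicate 1, and Igf2bp3 over Igf2bp2 at 1.31 in replicate 2 and 1.28 in replicate 1.

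The place of Igf2bp2 depended on which of its transcripts were counted. Of its TPM, 58.3% in replicate 2 and 55.0% in replicate 1 were given to transcripts annotated as retaining an intron, and 41.8% in replicate 2 and 45.0% in replicate 1 to protein-coding ones. Igf2bp2-201, which has 592 codons, took 38.8% in replicate 2 and 41.8% in replicate 1. The retained-intron transcript Igf2bp2-207 took 40.8% in replicate 2 and 38.6% in replicate 1, with deposited intervals of 19.9 to 26.3 TPM in replicate 2 and 18.0 to 26.8 TPM in replicate 1. Another retained-intron transcript, Igf2bp2-205, took 9.08% in replicate 2 and 7.78% in replicate 1. Counted over protein-coding transcripts alone, a choice made after these shares were seen, Igf2bp2 was at 26.4 ± 2.20 TPM, Igf2bp1 exceeded it by 2.95 ± 0.325 times and Igf2bp3 by 2.99 ± 0.214 times. The labels call the molecule total RNA, while the linked kit manual is for a kit that primes from poly(A) tails. Whether unspliced RNA reached these libraries was not tested.

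Hmga1 was carried by coding transcripts of 2 lengths. The longer form, of 106 or 107 codons in 3 transcripts, took 66.9% in replicate 2 and 68.4% in replicate 1, or 67.6 ± 1.07% (SD, n = 2). The shorter form, of 96 codons in 2 transcripts, took 33.2% in replicate 2 and 31.6% in replicate 1. Alternative splicing of Hmga1 into HMGA1a and the shorter HMGA1b protein is well known, and both proteins bind DNA (the protein is distinct from the gene copy Hmga1b described below). Hmga1-203 led the long form with 55.2% in replicate 2 and 54.7% in replicate 1. Of the short form, Hmga1-201 took 22.7% in replicate 2 and 24.4% in replicate 1, and Hmga1-204 took 10.4% in replicate 2 and 7.23% in replicate 1. Hmga1-205 and Hmga1-206 of the long form were between 5.13% and 7.68% in both libraries.

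The remaining genes were carried almost wholly by 1 transcript. Lin28b-201 with 271 codons, the single Igf2bp3 transcript with 579 and the single Trim71 transcript with 855 were the whole of their genes. Hmga2-201, with 108 codons, took 99.6% in replicate 2 and 95.9% in replicate 1. Igf2bp1-201, with 577 codons, took 92.2% in replicate 2 and 96.6% in replicate 1, and the non-coding Igf2bp1-202 took 6.47% in replicate 2 and 2.60% in replicate 1.

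**Figure D3:**
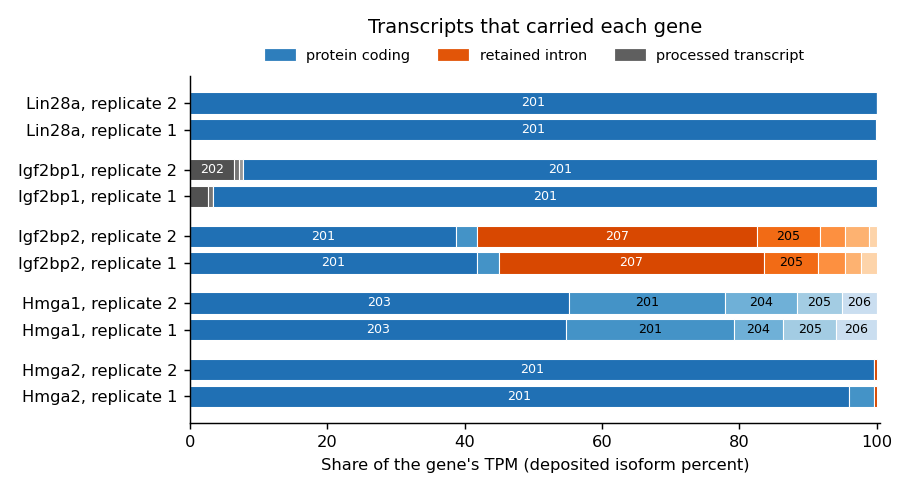
Bars divide the TPM of 5 genes among their transcripts (x axis: deposited isoform percent), replicate 2 above replicate 1, in blue for protein-coding, orange for retained-intron and grey for other non-coding transcripts, with the transcript number written on shares of at least 5%. Igf2bp2 is the gene with a large orange part, 58.3% in replicate 2 and 55.0% in replicate 1.

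Some loci share sequence with other genes. Of the windows of 100 bases in Hmga1 transcripts, 48.3% also occurred in Hmga1b, a near-identical copy on chromosome 11, which was at 4.45 TPM in replicate 2, against 5.16 TPM in replicate 1. Hmga1 exceeded this copy by 38.3 ± 4.47 times on the deposited scale and 17.0 times by posterior means, so the division between the 2 loci is uncertain. Igf2bp3 overlaps Malsu1, a mitochondrial ribosome assembly gene on the opposite strand, over 33.7% of its windows, and Malsu1 was at 49.5 TPM in replicate 2, against 45.0 TPM in replicate 1. Whether counting used the strand is not given in the sources used here, so reads of that overlap may belong to either gene. In Lin28a the share was 3.50%, in Hmga2 0.650% and in Trim71 0.444%, and Lin28b, Igf2bp1 and Igf2bp2 shared none. The opposite-strand partners of the other genes were AI413582 beside Hmga1, at 16.4 TPM in replicate 2, against 12.7 TPM in replicate 1, Gm29202 beside Igf2bp1, at 3.87 TPM in replicate 2, against 5.24 TPM in replicate 1, and partners of Lin28a, Hmga2 and Trim71 that were all under 1 TPM.

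Between the 2 pools, Lin28b differed most among the genes above 1 TPM, and no gene of the set passed all thresholds. Calls required an adjusted p under 0.05 (two-sided exact binomial test with Benjamini-Hochberg adjustment over 18939 genes), a 1.5-fold or larger ratio and a mean TPM of 1 or more. Of the 7 genes with a mean of at least 1 TPM, 0 were called, against 3.55% of all 15199 genes at that level. At an adjusted p under 0.05 and any ratio, 3 of these 7 genes were lower in replicate 2, against 14.1% of all genes, and 0 were higher, against 12.3%. The test compares these 2 libraries and holds only their counting error.

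Lin28b had 774 counts in replicate 2 and 845 counts in replicate 1, which after scaling for library size was 1.41-fold lower in replicate 2 (95% exact binomial interval 1.28 to 1.56, log2 ratio −0.50, adjusted p = 1.79e-10 by the exact binomial test). Its deposited TPM intervals did not overlap, at 5.91 to 6.80 TPM in replicate 2 and 8.13 to 9.30 TPM in replicate 1, a separation in that direction seen in 5.28% of genes. A log2 ratio as low or lower was found in 3.46% of genes at 1 TPM or more. By edgeR's exact negative binomial test, with 1 dispersion for all genes, the adjusted p of Lin28b was 0.402. That dispersion was estimated from these same 2 libraries, so the differences under test enter it. It is no independent measure of the spread between pools. By that test 0 of the 8 genes had an adjusted p under 0.05, against 266 of the 18939 genes tested. With so small a share passing among all genes, 0 of 8 says nothing particular about this set. At an unadjusted p under 0.05 there was 1 of the 8. The share of all genes at that limit was not counted, so this count has no background to be read against.

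Igf2bp2 was 1.09-fold lower in replicate 2 (log2 ratio −0.12, adjusted p = 0.00301, exact binomial test). Hmga2, with 827 counts in replicate 2 and 742 counts in replicate 1, was 1.16-fold lower (log2 ratio −0.21, adjusted p = 0.0203, exact binomial test). Both differences were below the 1.5-fold limit, and for neither did the negative binomial test give an adjusted p under 0.05. The other genes did not pass the exact binomial test: log2 ratios were 0.02 for Hmga1, 0.03 for Igf2bp1, −0.05 for Igf2bp3, −0.03 for Lin28a and −0.37 for Trim71, with adjusted p of 0.666, 0.267, 0.104, 0.954 and 0.197. With 105 counts a library, the 95% interval of the Trim71 ratio ran from 0.585 to 1.02, so its fitted 1.29-fold lower value was within counting error at this depth. The median log2 ratio was −0.09 over the 8 genes. Over the 7 with a mean of at least 1 TPM it was −0.05, against −0.001 over all tested genes at that level.

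Igf2bp1 showed how the TPM scale can differ from counts. Its deposited TPM intervals lay apart, at 82.0 to 87.6 TPM in replicate 2 and 75.3 to 79.8 TPM in replicate 1, a separation found in 10.8% of genes with replicate 2 higher, while its scaled count ratio was 1.02. Its average transcript length was estimated at 7781 bases in replicate 2 and 8116 bases in replicate 1, along with the larger share of the short Igf2bp1-202 in replicate 2. The leading Igf2bp1-201 was at 79.2 TPM in replicate 2, against 76.2 TPM in replicate 1.

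**Figure D4:**
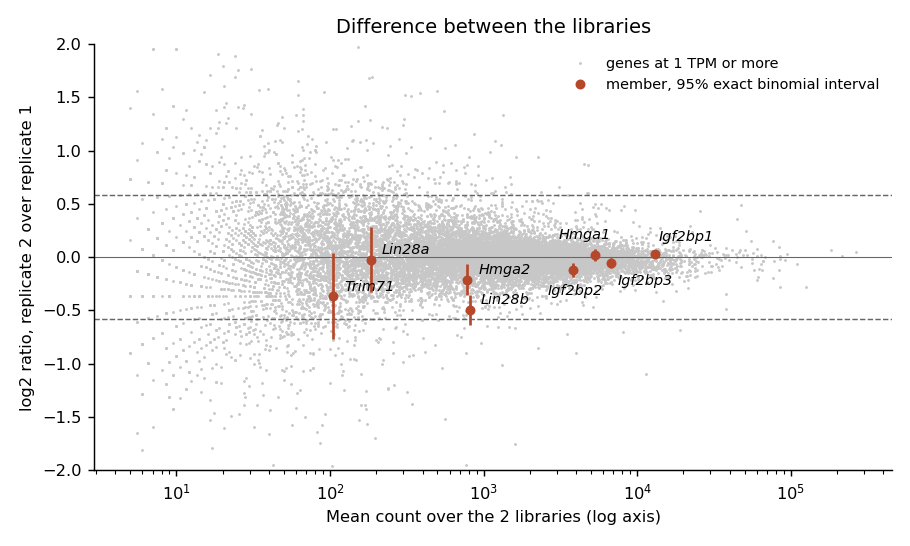
Grey points are genes with a mean of at least 1 TPM (x axis: mean count of the 2 libraries, log axis; y axis: log2 ratio of replicate 2 over replicate 1), and orange points are the 8 genes with 95% exact binomial intervals; ratios beyond the ends of the y axis are not drawn. Lin28b, at −0.50, sits just inside the dashed lines of 1.5-fold, and the Igf2bp genes and Hmga1 lie near 0.

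Markers of other tissues and of cell types also differed between the pools. At an adjusted p under 0.05 and any ratio, 14.1% of all genes at 1 TPM or more were lower in replicate 2 and 12.3% higher. These shares are the background for the counts here and in the lists below. At high counts the exact binomial test passes small ratios, as for Tubb3, 1.05-fold lower with 35911 counts in replicate 2 and 29133 counts in replicate 1. Genes listed as yolk sac endoderm markers were lower in replicate 2, in 7 of 7 tested, and which tissue expressed them was not tested. Of the 5 at 1 TPM or more, 4 were called lower, Afp, Apoa1, Ttr and Rbp4. Their list summed to 30.9 TPM in replicate 2, against 77.8 TPM in replicate 1. Most of each sum came from Ttr, at 13.8 TPM in replicate 2, against 38.7 TPM in replicate 1, and from Trf. Trf was not called, at 14.5 TPM in replicate 2, against 17.1 TPM in replicate 1. Afp was at 0.09 TPM in replicate 2, against 11.9 TPM in replicate 1, and Alb was listed at 0 in both. Mesenchymal markers were higher in 8 of 8, with 7 at an adjusted p under 0.05 by the exact binomial test and sums of 1569 TPM in replicate 2, against 1111 TPM in replicate 1, and red cell markers were higher in 8 of 8. The microglia markers had ratios above 1 in 6 of 6, though that of Csf1r was 1.001. Of them, 4 were higher at an adjusted p under 0.05 by the exact binomial test. Their sums were 113 TPM in replicate 2, against 88.0 TPM in replicate 1. Of 10 neural progenitor markers, 6 were lower and 2 higher at an adjusted p under 0.05 by the exact binomial test. Their median log2 ratio was −0.12. Only Pax6 was called, at 17.7 TPM in replicate 2, against 60.0 TPM in replicate 1. Its log2 ratio of −1.75 was far from those of the other 9, which ran from −0.35 for Hes1 to 0.21 for Slc1a3. What the Pax6 difference reflects was not tested. Postmitotic neuron markers had 8 of 10 lower at an adjusted p under 0.05 by the exact binomial test, with 0 higher and a median log2 ratio of −0.12, and endothelial markers had 3 of 6 higher and 1 lower, with a median of 0.20. All 8 midbrain markers were above 1 TPM in both libraries; 4 were higher and 1 lower at an adjusted p under 0.05 by the exact binomial test, with a median log2 ratio of 0.29, and En1, a midbrain and isthmus factor, was at 8.49 TPM in replicate 2, against 5.90 TPM in replicate 1. The part of these differences in the lower Lin28b, Igf2bp2 and Hmga2 of replicate 2 was not tested. The midbrain list was led in level by Otx2 at 142 TPM in replicate 2, against 147 TPM in replicate 1, and 7 of 8 pluripotent cell markers were under 1 TPM in both, with Esrrb at 1.49 TPM in replicate 2, against 1.43 TPM in replicate 1.

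The machinery that makes let-7 was present throughout. All 14 let-7 biogenesis genes were above 1 TPM, from Ran, the GTPase that drives nuclear export, at 587 TPM in replicate 2, against 570 TPM in replicate 1, to Ago4 at 6.80 TPM in replicate 2, against 7.84 TPM in replicate 1. Ddx5, a helicase of the microprocessor, was at 400 TPM in replicate 2, against 390 TPM in replicate 1, and Tarbp2, a partner of Dicer, at 87.5 TPM in replicate 2, against 85.4 TPM in replicate 1. None of the 14 was called (0 of 14, against 3.55% of genes), and their median log2 ratio was −0.04. At any ratio, 4 were lower and 1 higher with an adjusted p under 0.05 by the exact binomial test. Khsrp, which aids let-7 processing, was the most different at 49.2 TPM in replicate 2, against 65.6 TPM in replicate 1, 1.36-fold lower.

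The mature let-7 RNAs cannot be read from these libraries. The 10 let-7 family precursor genes in the files were all listed at 0 TPM, at lengths of 108 bases or less, against the minimum of 200 nt for the RNA used. The 6 measured genes that host let-7 hairpins in their introns or exons, looked up after the precursors were seen at 0, spanned a wide range. Mir99ahg, the host of let-7c-1, was at 91.1 TPM in replicate 2, against 83.2 TPM in replicate 1, and 3110039I08Rik, the host of let-7a-2, at 82.0 TPM in replicate 2, against 80.7 TPM in replicate 1. Huwe1, which holds let-7f-2 and miR-98, was at 70.8 TPM in replicate 2, against 63.7 TPM in replicate 1. The host of the cluster of let-7a-1, let-7f-1 and let-7d, 6720427I07Rik, was the lowest at 2.13 TPM in replicate 2, against 3.00 TPM in replicate 1, while Spaca6 with let-7e was at 39.6 TPM in replicate 2, against 39.0 TPM in replicate 1 and Wdr82 with let-7g at 29.4 TPM in replicate 2, against 29.3 TPM in replicate 1. A host's level does not give the level of the microRNA.

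The 6 listed partners of the Lin28 proteins in let-7 control were, save Trim25, each more abundant than Lin28a and Lin28b together. Msi1, an RNA-binding protein that works with Lin28a in neural cells, was at 174 TPM in replicate 2, against 182 TPM in replicate 1. Syncrip was at 97.8 TPM in replicate 2, against 97.0 TPM in replicate 1, and Tut4, the uridylyl transferase that Lin28a recruits, at 83.1 TPM in replicate 2, against 86.7 TPM in replicate 1. Of the 6, 0 were called and 3 were lower at an adjusted p under 0.05 by the exact binomial test, with a median log2 ratio of −0.07.

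Other known let-7 targets were expressed at many levels. Of 18, 16 had a mean of at least 1 TPM, 0 were called, 5 were lower and 2 higher at an adjusted p under 0.05 by the exact binomial test, and the median log2 ratio was −0.04. The cyclins Ccnd1, at 233 TPM in replicate 2, against 203 TPM in replicate 1, and Ccnd2, at 211 TPM in replicate 2, against 224 TPM in replicate 1, led the list. In the longest 3′ UTR of each, 10 of 18 held the 7-mer CTACCTC. Nr6a1, an orphan nuclear receptor, was at 2.26 TPM in replicate 2, against 2.31 TPM in replicate 1 and held 8, the most of all genes.

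Known RNA and protein partners of the Igf2bp proteins were led by Actb. Its mRNA, which Igf2bp1 carries in growing axons, was at 5142 TPM in replicate 2, against 4794 TPM in replicate 1, Hnrnpa2b1 at 1071 TPM in replicate 2, against 1144 TPM in replicate 1 and Gap43, a growth cone protein, at 297 TPM in replicate 2, against 287 TPM in replicate 1. Igf2, the growth factor for which the family is named, was at 172 TPM in replicate 2, against 122 TPM in replicate 1, and the imprinted RNA H19 at 78.2 TPM in replicate 2, against 52.9 TPM in replicate 1. These 2 were 1.34-fold and 1.44-fold higher in the library with the higher mesenchymal markers, whose part was not tested. Ptch1, the Hedgehog receptor, had the largest difference of the list in the other direction, at 10.9 TPM in replicate 2, against 15.6 TPM in replicate 1, or 1.45-fold lower. Igf2, H19 and Ptch1 were named after their values were seen. Of the 10, 0 were called, 3 were lower and 4 higher at an adjusted p under 0.05 by the exact binomial test, and the median log2 ratio was 0.07.

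For the Hmga genes, the list of repressed loci and partners held Cdkn2a, the cell cycle inhibitor locus that Hmga2 is known to lower in mouse neural stem cells, which was listed at 0 in both libraries. Its neighbour Cdkn2b was at 0.66 TPM in replicate 2, against 0.26 TPM in replicate 1. Of the remaining genes, Ercc1 was at 94.7 TPM in replicate 2, against 84.0 TPM in replicate 1, E2f1 at 29.7 TPM in replicate 2, against 33.1 TPM in replicate 1 and Rb1 at 27.6 TPM in replicate 2, against 27.3 TPM in replicate 1. None of the 4 above 1 TPM was called, 1 was lower and 1 higher at an adjusted p under 0.05 by the exact binomial test, and the median log2 ratio of the 5 tested was 0.12.

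Hmga1 was not the most abundant high-mobility group gene. Hmgn2, a nucleosome-binding protein, was at 2522 TPM in replicate 2, against 2413 TPM in replicate 1, Hmgb1 at 1146 TPM in replicate 2, against 1161 TPM in replicate 1 and Hmgb3 at 580 TPM in replicate 2, against 581 TPM in replicate 1. Of the 7 relatives, 0 were called, 2 were lower and 2 higher at an adjusted p under 0.05 by the exact binomial test, and the median log2 ratio was −0.02.

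Genes regulated by Trim71 or working with it were above Trim71 itself, as were 13891 of the 21461 nuclear protein-coding genes. The lowest of the list, Egr1, was at 1.65 TPM in replicate 2, against 1.59 TPM in replicate 1. Trim32, a related ligase of neural progenitors, was at 62.4 TPM in replicate 2, against 67.0 TPM in replicate 1, Shcbp1 at 41.7 TPM in replicate 2, against 40.8 TPM in replicate 1 and E2f7 at 28.5 TPM in replicate 2, against 28.2 TPM in replicate 1. Of the 8, 0 were called, Trim32 alone was lower at an adjusted p under 0.05 by the exact binomial test, and the median log2 ratio was 0.01.

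Factors of later progenitors were also present in this tissue, where 1 stage of bulk RNA shows neither their onset nor the cells that held them. Their levels reached down to Casz1, at 2.71 TPM in replicate 2, against 3.32 TPM in replicate 1. Sox9, which is needed for glial fate, was at 122 TPM in replicate 2, against 108 TPM in replicate 1, Pou3f2 at 65.9 TPM in replicate 2, against 74.0 TPM in replicate 1 and Zbtb20 at 66.2 TPM in replicate 2, against 61.4 TPM in replicate 1. All 8 of this list had a mean of at least 1 TPM, 0 were called, 3 were lower and 1 higher at an adjusted p under 0.05 by the exact binomial test, and the median log2 ratio was −0.02.

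**Figure D5:**
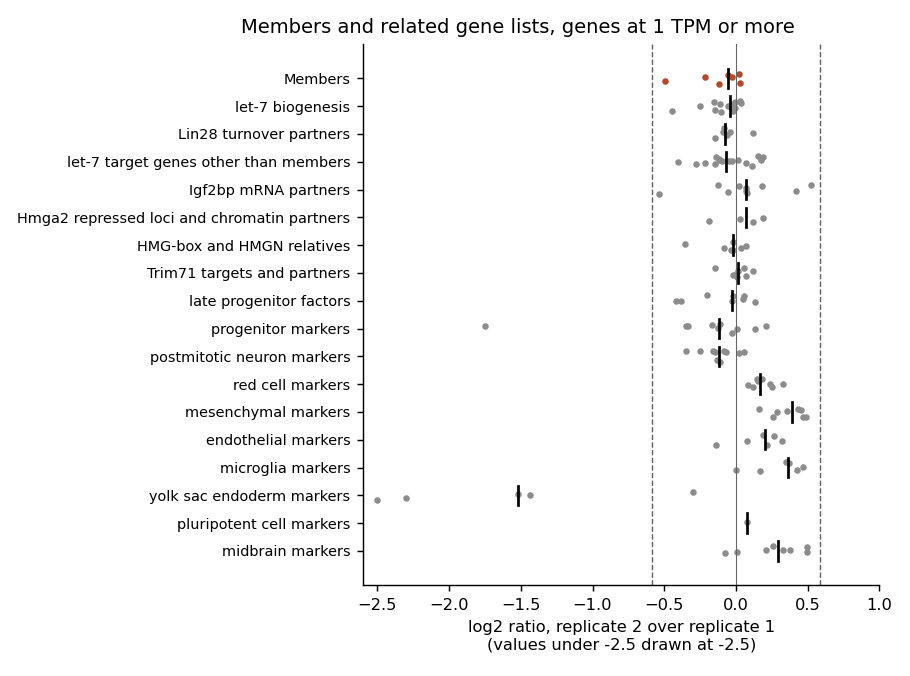
Each point is a gene with a mean of at least 1 TPM (x axis: log2 ratio of replicate 2 over replicate 1; y axis: gene list), with the 7 of the 8 genes at that level in orange, list medians as black bars and 1.5-fold as dashed lines. Those 7 genes and the let-7, Igf2bp, Hmga and Trim71 lists lie between the dashed lines, while yolk sac endoderm markers extend to the left and mesenchymal markers lie to the right of 0.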

How the data were processed

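Deposited expected counts, TPM and isoform percent came from 1 gene and 1 transcript file per library, quantified on mm10 with GENCODE M4 per the file headers and notes; the sources used here do not name the aligner or counter, or say if strand was used. The expected counts deposited need not be whole and were rounded for tests. The deposited TPM is scaled to effective length and library. Beside it stood a posterior mean and an interval of unstated level, which need not hold the deposited TPM. The protocol field links a SMARTer Ultra Low kit manual. Names and coordinates came from GENCODE M21, which matched 42462 of 43346 genes.

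Libraries were scaled by TMM (edgeR 4.0.16, R 4.3.3; factors 1.005 in replicate 2 and 0.995 in replicate 1) over genes with at least 10 counts summed. Ratios have exact binomial tests and 95% intervals, which cover counting error only (scipy 1.17.1); log2 ratios have 0.5 counts added. The test was checked on simulated data. The negative binomial alternative used 1 dispersion from these 2 libraries (biological coefficient of variation 0.0939). The members and lists were chosen with earlier results of these data known. Named genes were all members and the called genes of each list. Of each list other than the tissue and cell type markers, the 3 with the highest mean TPM were named too. Other genes were chosen after their values were seen. A listed gene that the rule names is not reported here. Alternatives were other scalings, count minimums, thresholds and estimates.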

Additional observations from a re-analysis of the deposited data

How the results depend on the processing

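The count of 0 called among the 8 genes held under DESeq2 size factors, scaling to total counts and no count minimum. The direction of their log2 ratios held under both scalings and with 1 count added; from deposited TPM, Lin28a was at 0 in place of −0.03 and the other 7 kept their sign. The shift in the median log2 ratio of all genes stayed between −0.003 and 0.013. The number of genes called was 539; it was 201 by the negative binomial test, 213 at 2-fold and 206 at a mean TPM of at least 5. The number of the 8 genes with an adjusted p under 0.05 was 3 by the exact binomial test. It was 0 by the negative binomial test, which takes its dispersion from the same 2 libraries and passed 266 of 18939 genes. In counts without length normalisation, which weight long transcripts, Lin28b over Lin28a was 4.46, Igf2bp1 over Igf2bp2 3.39, Igf2bp3 over Igf2bp2 1.75, Igf2bp1 over Igf2bp3 1.93 and Hmga1 over Hmga2 6.70. Over protein-coding transcripts alone, chosen after seeing the data, Igf2bp1 over Igf2bp2 was 2.95 and Igf2bp3 over Igf2bp2 2.99, and Igf2bp1 over Igf2bp3 was 0.986 in place of 1.05, a move within the spread of the libraries. No paired analysis was possible because there is 1 group. Lin28a and Trim71, with under 210 counts a library, are limited by depth.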
